A study of Mus musculus with 9 samples.

Results

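A set of 6 genes that mark unusual chemosensory neurons of the mouse nose, Gucy2d, Pde2a, Cnga3, Car2, Trpc2 and Gucy1b2, was followed in sorted olfactory sensory neurons that were chosen by an odorant receptor of the canonical kind. The genes were taken by name, 6 of the 55291 gene rows, and read in all 9 RNA-seq libraries. Polyadenylated RNA came from 3 groups of 3 libraries each: neurons of Olfr1507-IRES-GFP mice, of Olfr73-IRES-GFP mice and of Olfr160-IRES-mCherry mice, in which an internal ribosome entry site (IRES) makes cells that transcribe the tagged receptor allele also make a fluorescent protein. Dissociated main olfactory epithelium was sorted for bright reporter signal and low DAPI, a dye that enters dead cells. The design text mentions duplicates, whereas each group here holds 3 libraries, and the labels do not settle how the 3 relate. Age, sex, zygosity and the number of animals behind a library are not given in the sources used here, so the p-values measure the spread between these libraries. The series title frames the comparison as one between neurons that express different receptors. The Olfr160 group is also the one with mCherry in place of GFP, and these differences cannot be told apart.

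Most olfactory sensory neurons detect odorants with an odorant receptor that raises cyclic AMP and opens a channel built on Cnga2. Necklace neurons, named for the ring of glomeruli their axons reach, use cyclic GMP instead: Gucy2d encodes their receptor guanylyl cyclase D, Cnga3 the channel subunit that cyclic GMP opens, Pde2a a phosphodiesterase that cyclic GMP activates, and Car2 the carbonic anhydrase II that lets them respond to carbon dioxide. A further rare set of neurons in the mouse main olfactory epithelium carries Trpc2, the cation channel best known from the vomeronasal organ, and part of that set (type B cells) also carries Gucy1b2, a soluble guanylyl cyclase subunit tied to the sensing of low oxygen.

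The libraries held between 17212807 and 36230606 expected counts. The tagged receptor took 85.1 to 94.7% of all Olfr counts in the Olfr1507 libraries, 22.8 to 32.8% in those of Olfr73 and 2.08 to 10.11% in those of Olfr160, so in the last group most receptor RNA belonged to receptors other than the one on the label. Omp, the marker of mature olfactory sensory neurons, averaged 20414 ± 1488 TPM (a level corrected for transcript length and depth) in Olfr1507, 15604 ± 844 TPM in Olfr73 and 10701 ± 2511 TPM in Olfr160 libraries (SD, n = 3 each). Markers of several other cell types had the opposite order of groups. The summed level of 14 supporting and gland cell genes was 184 to 396 CPM (counts scaled to library size and normalised by TMM) in Olfr1507, 2660 to 4535 CPM in Olfr73 and 12728 to 20913 CPM in Olfr160 libraries. For 14 immune genes the sums were 2.43 to 5.97, 77.7 to 111 and 241 to 724 CPM in the same order of groups, and for 8 red blood cell genes 2.68 to 11.9, 5.87 to 64.2 and 87.2 to 588 CPM. Other markers did not keep that order: microvillar and brush cell genes summed to 55.5 to 75.7, 27.0 to 51.9 and 105 to 170.4 CPM, and respiratory epithelium genes to 882 to 997, 967 to 1082 and 995 to 1648 CPM. In the Olfr1507 libraries 4 of the 14 immune genes were at 0 throughout (Csf1r, C1qc, Itgam and Cd79a), and Car1, a carbonic anhydrase of red blood cells, was also at 0 in all of them. The part of these cells in the results below was not tested. In sorted bulk samples fewer cells of a type and less RNA per cell cannot be told apart.

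Members with enough counts were tested with edgeR's quasi-likelihood test on the counts of all 16399 genes that passed the low-count filter, with Benjamini-Hochberg adjustment and a threshold of 0.05. Gucy2d, Pde2a, Car2 and Gucy1b2 passed the filter, whereas Cnga3 and Trpc2 did not. In Olfr1507 over Olfr160 neurons 2 of the 4 tested members, Pde2a and Gucy2d, fell, and none of the 4 rose, where 27.7% of all tested genes were called lower in Olfr1507, 20.7% higher and 48.4% in either direction. In Olfr73 over Olfr160 neurons 1 of the 4, Pde2a, fell, against 10.5% of all tested genes called lower in Olfr73, 7.45% higher and 17.9% in either direction. In Olfr1507 over Olfr73 neurons edgeR called 0 of the 4, against 14.5% of all tested genes called higher in Olfr1507, 19.9% lower and 34.4% in either direction. DESeq2 and limma also called 0 there, and by edgeR 0 had an unadjusted p under 0.05. These counts of members were not tested against the background. Scaling libraries to the counts of canonical transduction genes, an alternative used below, moves all genes together. Over all tested genes the log2 fold changes then had a median of -1.71 in Olfr1507 over Olfr160, -1.04 in Olfr1507 over Olfr73 and -0.70 in Olfr73 over Olfr160 neurons. With TMM the medians were -0.14, -0.15 and -0.012. That scaling called 14000, 9563 and 5079 of the 16399 tested genes in the same order, 118, 357 and 99 of them higher.

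**Figure D1:**
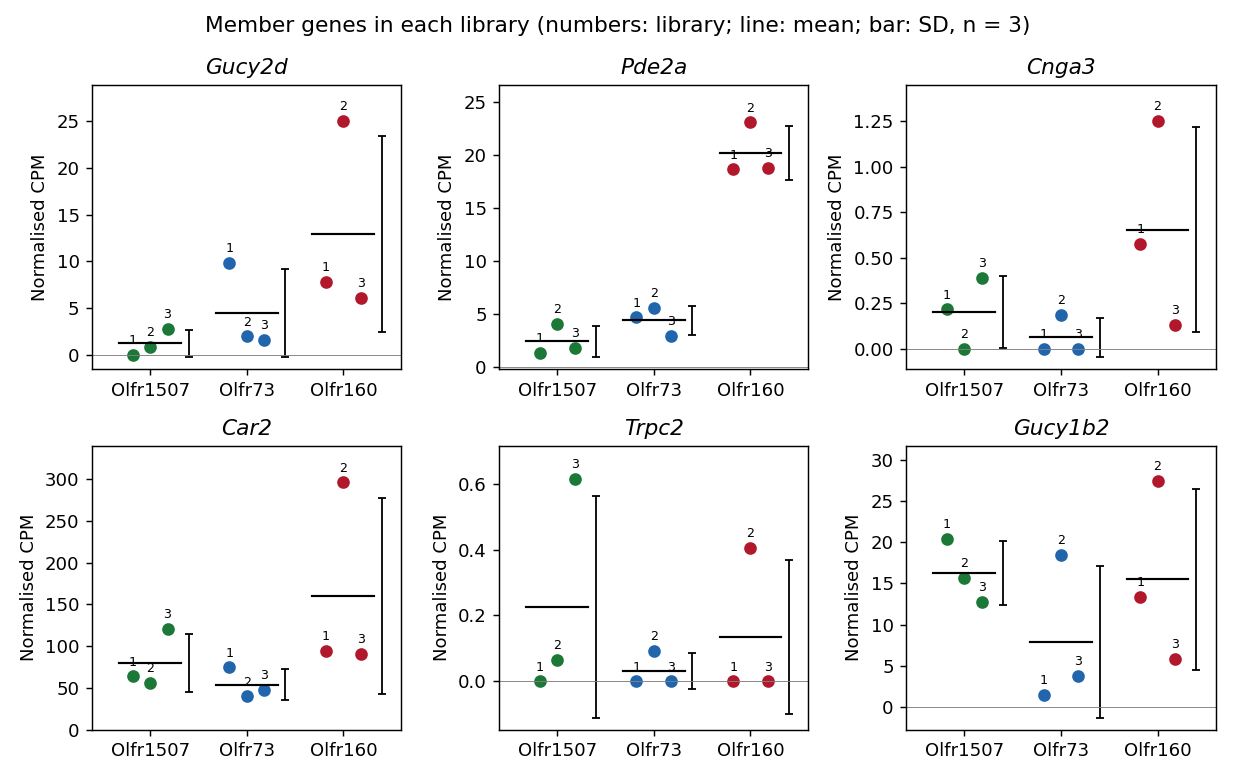
Normalised CPM (TMM, linear axis) of each of the 6 genes in every library, in panels of their own scale, with Olfr1507, Olfr73 and Olfr160 libraries from left to right; numbers are library numbers, lines are means and bars SD (n = 3). Pde2a separates the Olfr160 libraries from the rest, while library 2 of Olfr160 is the highest point for Gucy2d, Cnga3, Car2 and Gucy1b2 as well.

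Pde2a had the pattern that held best between libraries. The gene spans chr7:101421691-101512827 on the plus strand (GRCm38/mm10). Its level was 1.35, 4.13 and 1.84 CPM in the 3 Olfr1507 libraries, 4.71, 5.62 and 2.94 CPM in those of Olfr73, and 18.7, 23.1 and 18.8 CPM in the Olfr160 libraries. The Olfr160 libraries lay above all 6 others, and the other groups overlapped each other. Pde2a fell in Olfr1507 over Olfr160 neurons by 3.03 on the log2 scale (SE 0.44, edgeR adjusted p = 0.000559). It also fell in Olfr73 over Olfr160 neurons, by 2.19 (SE 0.42, edgeR adjusted p = 0.0101). Both calls held in all 21 alternative fits at the 0.05 threshold. In Olfr1507 over Olfr73 neurons the log2 fold change was -0.84 (SE 0.42, edgeR adjusted p = 0.142), and it passed the threshold once Olfr1507 library 2 was left out (-1.46, adjusted p = 0.0204). Gm45837, a gene model on the same strand, covers 64.3% of the exonic bases of Pde2a, but its row held 0 counts in every library.

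Even at its highest, Pde2a was a minor phosphodiesterase of these neurons. It made up 0.0539 ± 0.0347% of the TPM of all phosphodiesterase genes in Olfr1507, 0.205 ± 0.0600% in Olfr73 and 1.02 ± 0.318% in Olfr160 libraries (SD, n = 3 each). Pde4a and Pde1c, the enzymes that break down cyclic AMP in canonical olfactory neurons, carried most of the family: Pde4a averaged 971 TPM in Olfr1507, 293 TPM in Olfr73 and 336 TPM in Olfr160 libraries, and Pde1c 714, 555 and 475 TPM in the same order. Of 19 other phosphodiesterase genes tested, 5 rose and 7 fell in Olfr1507 over Olfr160 neurons, with a median log2 fold change of -1.41 against -0.14 over all tested genes. In Olfr1507 over Olfr73 neurons 6 rose and 3 fell (median -0.12 against -0.15). In Olfr73 over Olfr160 neurons none rose and 3 fell, namely Pde1a, Pde4b and Pde9a (median -1.05 against -0.012). Over all tested genes 20.7%, 14.5% and 7.45% were called higher in the 3 comparisons, and 27.7%, 19.9% and 10.5% lower. Pde3a and Pde11a held 0 counts over the Olfr1507 libraries. Where tested, they passed the low-count filter through other groups and could only fall in Olfr1507. Pde4b, another cyclic AMP phosphodiesterase, fell in every comparison, at 0.887 ± 0.643 TPM in Olfr1507, 7.87 ± 2.69 TPM in Olfr73 and 24.2 ± 5.74 TPM in Olfr160 libraries (edgeR adjusted p = 0.000118 in Olfr1507 over Olfr160, 0.00189 in Olfr1507 over Olfr73, 0.0281 in Olfr73 over Olfr160). Pde9a, which breaks down cyclic GMP, had the same order, at 1.17 ± 0.654, 4.21 ± 1.60 and 11.1 ± 2.79 TPM, and also fell in all 3 (adjusted p = 0.00077, 0.0252 and 0.0426). The genes that rose in Olfr1507 neurons included Pde4a, by 1.70 over Olfr160 and 1.73 over Olfr73 on the log2 scale (adjusted p = 0.000283 and 0.00054), and Pde6d, a carrier of lipid-modified proteins, by 1.75 and 1.78 (adjusted p = 0.00123 and 0.00202). With library size alone 2 of the 19 rose and 8 fell in Olfr1507 over Olfr160 neurons. Scaled to the transduction genes, 0 rose and 12 fell there (Pde4a was at 0.20 and Pde6d at 0.26). In Olfr1507 over Olfr73 3 rose and 7 fell, and in Olfr73 over Olfr160 neurons 0 rose and 7 fell. Such scaling called 14000, 9563 and 5079 of all 16399 tested genes in the 3 comparisons, with 118, 357 and 99 of them higher.

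Gucy2d, the defining gene of necklace neurons, lies at chr7:98440416-98477479 on the plus strand. It was at 0, 0.924 and 2.85 CPM in the Olfr1507 libraries, 9.86, 2.01 and 1.63 CPM in those of Olfr73, and 7.80, 24.9 and 6.09 CPM in those of Olfr160. The Olfr1507 libraries all lay below the Olfr160 libraries, while the Olfr73 libraries reached into both ranges, with library 1 above 2 of the Olfr160 libraries. The 0 in Olfr1507 library 1 allows up to 3 counts, or 0.162 CPM of that library (counting error only). Gucy2d fell in Olfr1507 over Olfr160 neurons by 3.37 on the log2 scale (SE 1.21, edgeR adjusted p = 0.0438). The call was lost, with an adjusted p above 0.05, when certain single libraries were left out. That adjusted p was 0.0668 without Olfr1507 library 1, 0.121 without Olfr1507 library 2, 0.0595 without Olfr160 library 1 and 0.161 without Olfr160 library 2. In Olfr1507 over Olfr73 neurons the log2 fold change was -1.85 (adjusted p = 0.239) and in Olfr73 over Olfr160 neurons -1.52 (adjusted p = 0.365). Both values turn on single libraries: without Olfr73 library 1 they were -0.54 and -2.83, without Olfr1507 library 3 the first was -3.17, and without Olfr160 library 2 the second was -0.63.

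**Figure D2:**
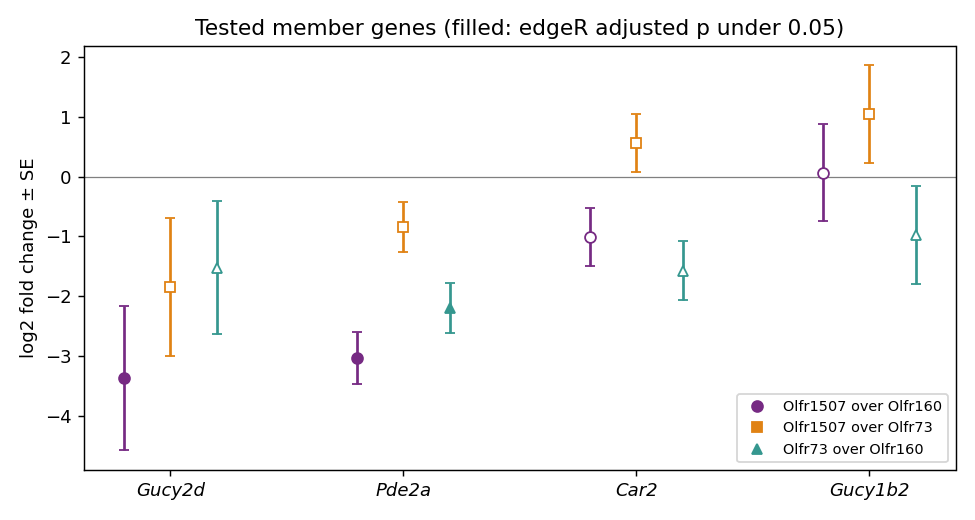
Log2 fold change with its standard error for the 4 tested genes, each in the order Olfr1507 over Olfr160 (circles), Olfr1507 over Olfr73 (squares) and Olfr73 over Olfr160 (triangles), from edgeR on 3 libraries a group; filled symbols passed an adjusted p of 0.05. The filled points are Gucy2d (-3.37) and Pde2a (-3.03) in Olfr1507 over Olfr160 and Pde2a (-2.19) in Olfr73 over Olfr160.

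Gucy1b2 behaved differently from Gucy2d. It lies at chr14:62392676-62456289 on the minus strand. Its level was 20.5, 15.7 and 12.8 CPM in the Olfr1507 libraries, 1.45, 18.5 and 3.73 CPM in those of Olfr73, and 13.3, 27.5 and 5.78 CPM in those of Olfr160. All 3 groups overlapped, with means of 16.3 ± 3.88 CPM in Olfr1507, 7.89 ± 9.25 CPM in Olfr73 and 15.5 ± 11 CPM in Olfr160 libraries (SD, n = 3 each). None of the comparisons passed: the log2 fold change was 0.069 in Olfr1507 over Olfr160 (SE 0.81, edgeR adjusted p = 0.951), 1.05 in Olfr1507 over Olfr73 (adjusted p = 0.343) and -0.98 in Olfr73 over Olfr160 neurons (adjusted p = 0.434). The last pair rested on a single library. Without Olfr73 library 2, Gucy1b2 was at 2.68 in Olfr1507 over Olfr73 (adjusted p = 0.0225) and -2.62 in Olfr73 over Olfr160 neurons (adjusted p = 0.0432).

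Gucy1b2 and Gucy2d together made up most of the guanylyl cyclase RNA, which sums the TPM of 11 genes. Gucy1b2 took 73.8 ± 10.15% of it in Olfr1507, 53.6 ± 32.5% in Olfr73 and 50.3 ± 5.35% in Olfr160 libraries, and Gucy2d took 4.20 ± 4.71%, 35.4 ± 40.5% and 28.3 ± 6.28% in the same order (SD, n = 3 each). The spread in Olfr73 comes from libraries of opposite make-up, since Gucy2d was 81.7% of the family in library 1 and Gucy1b2 was 80.5% of it in library 2. A soluble guanylyl cyclase usually works as a pair of an alpha and a beta subunit, and the alpha subunits were at or near 0: Gucy1a1 averaged 0, 0.0600 and 0.273 TPM and Gucy1a2 averaged 0.0167, 0 and 0.0133 TPM in Olfr1507, Olfr73 and Olfr160 libraries, next to 10.8, 5.81 and 11.8 TPM of Gucy1b2. Gucy1a1 was at 0 counts in all Olfr1507 libraries and at 47 counts over the Olfr160 libraries, at least 15.4-fold lower in Olfr1507 (floor of 3 counts over the group; edgeR adjusted p = 0.0347). Its usual partner Gucy1b1 averaged 0.150, 0.430 and 0.797 TPM and passed in no comparison. Of the 5 other guanylyl cyclase genes tested, Gucy1a1 was the only one called in Olfr1507 over Olfr160 neurons. Gucy2c was the only one called in Olfr1507 over Olfr73 and in Olfr73 over Olfr160 neurons. Over all tested genes 48.4%, 34.4% and 17.9% were called in either direction in these 3 comparisons. Gucy1a1 passed the low-count filter through other groups and could only fall in Olfr1507. Likewise Gucy2c, with 1 count over the Olfr73 libraries, could only be lower there.

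Gucy2c, the membrane cyclase that binds guanylin peptides in the gut, had the sharpest pattern of that family. It held 118, 132 and 157 counts in the Olfr1507 libraries, 0, 1 and 0 counts in those of Olfr73, and 99, 150 and 73 counts in those of Olfr160. The Olfr73 libraries were nearly empty, and the others overlapped. Per unit of library size the level was 400 times higher in Olfr1507 than in Olfr73 libraries (interval 71.3 to 15825, counting error only), with an edgeR adjusted p of 0.00014. Olfr73 libraries were likewise lower than Olfr160 libraries by a ratio of 310.3 (interval 55.3 to 12296, adjusted p = 0.00152). In Olfr1507 over Olfr160 neurons the log2 fold change of Gucy2c was 0.47 (adjusted p = 0.453).

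**Figure D3:**
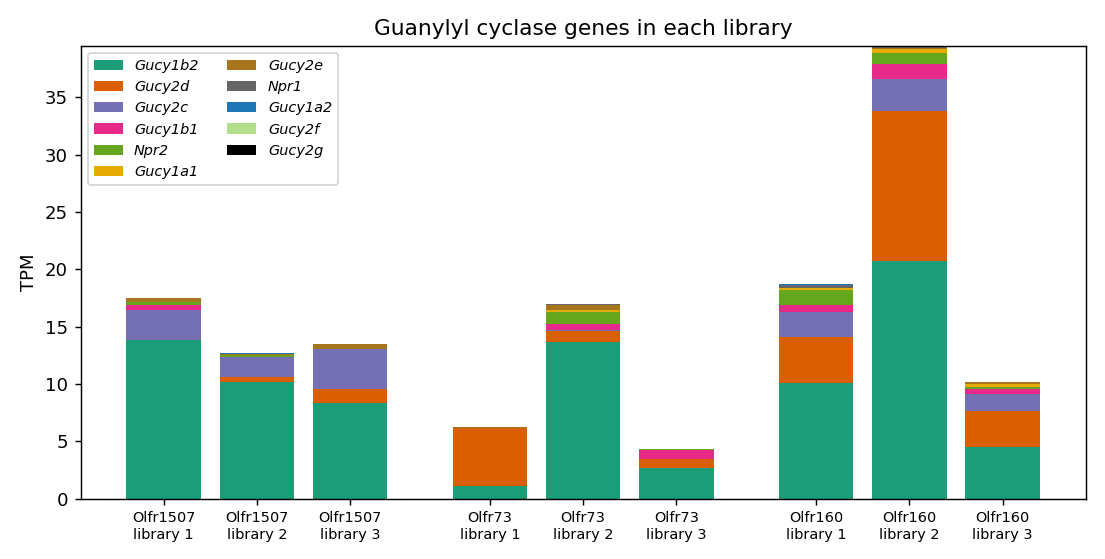
TPM of the guanylyl cyclase genes stacked for each of the 9 libraries, Olfr1507 to Olfr160 from left to right. Gucy1b2 and Gucy2d make up most of each bar but change places between Olfr73 libraries 1 and 2, and Gucy2c is visible in Olfr1507 and Olfr160 but not in Olfr73 libraries.

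Car2 was the most abundant of the 6 by TPM in all 9 libraries. It lies at chr3:14886273-14900770 on the plus strand. Its level was 63.7, 56.4 and 120.1 CPM in the Olfr1507 libraries, 74.4, 39.8 and 47.3 CPM in those of Olfr73, and 94.7, 296 and 90.6 CPM in those of Olfr160. Library 2 of Olfr160 stood far above the rest, Olfr73 and Olfr160 did not overlap, and Olfr1507 overlapped both. No comparison passed: the log2 fold change was -1.0 in Olfr1507 over Olfr160 (SE 0.49, edgeR adjusted p = 0.116), 0.57 in Olfr1507 over Olfr73 (adjusted p = 0.384) and -1.58 in Olfr73 over Olfr160 neurons (SE 0.50, adjusted p = 0.0564). The last value lay close to the threshold and was called in 8 of 21 alternative fits, among them DESeq2 (adjusted p = 0.0029). In Olfr1507 over Olfr160 neurons 3 alternatives called Car2: library size alone (adjusted p = 0.0406), scaling to the transduction genes (0.00158) and DESeq2 (0.0342). Without Olfr160 library 2 the log2 fold change was -0.21 in Olfr1507 over Olfr160 and -0.79 in Olfr73 over Olfr160 neurons, and without Olfr1507 library 3 it was 0.16 in Olfr1507 over Olfr73 neurons. Red blood cells also make carbonic anhydrase II; the summed red blood cell markers were 261, 588 and 87.2 CPM in the Olfr160 libraries 1, 2 and 3, and their part in the level of Car2 was not tested.

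Within its family Car2 made up 58.1 ± 8.93% of the TPM of all carbonic anhydrase genes in Olfr1507, 57.2 ± 5.56% in Olfr73 and 63.3 ± 15.2% in Olfr160 libraries (SD, n = 3 each). Single libraries ran from 49.3 to 79.5%. By counts in place of TPM Olfr160 went from the highest group to the lowest, with 65.8 ± 9.10% in Olfr1507, 58.4 ± 4.55% in Olfr73 and 51.2 ± 16.5% in Olfr160 libraries. The TPM shares differed by less than their spread, in a design too small to pass 0.05 (two-sided exact permutation p = 0.7 in Olfr1507 over Olfr160, 0.9 in Olfr1507 over Olfr73, 0.7 in Olfr73 over Olfr160; 0.84, 0.9 and 0.84 after adjustment over the 6 share comparisons made, with 0.1 the smallest p that 3 against 3 can give). Around Car2 the family changed. Car12, a membrane-bound carbonic anhydrase, fell in every comparison, at 0.690 ± 0.890 TPM in Olfr1507, 9.87 ± 4.09 TPM in Olfr73 and 56.9 ± 21.9 TPM in Olfr160 libraries (edgeR adjusted p = 0.000362 in Olfr1507 over Olfr160, 0.00583 in Olfr1507 over Olfr73, 0.0338 in Olfr73 over Olfr160). Car11, a carbonic anhydrase-related protein without the enzyme activity, averaged 45.3 ± 2.41, 22.5 ± 5.25 and 19.7 ± 5.14 TPM in that order of groups and rose in Olfr1507 over both others (adjusted p = 0.00164 over Olfr160 and 0.00315 over Olfr73). Car8, also without enzyme activity, averaged 4.70 ± 1.11, 0.110 ± 0.142 and 0.710 ± 0.217 TPM and rose in Olfr1507 over both (adjusted p = 0.0118 and 0.0019). Scaled to the transduction genes, Car11 was at -0.10 and Car8 at 1.28 in Olfr1507 over Olfr160 neurons, and neither passed; over Olfr73, Car11 was at 0.59 and no longer passed. On that scale 0 of the family members rose and 4 fell in Olfr1507 over Olfr160 neurons. In Olfr1507 over Olfr73 1 rose and 4 fell, and in Olfr73 over Olfr160 neurons 3 fell. Among all 16399 tested genes 14000, 9563 and 5079 were then called, with 118, 357 and 99 of them higher. Of 8 other family members tested, 2 rose (Car8 and Car11) and 3 fell (Car5b, Car10 and Car12) in Olfr1507 over Olfr160. The same 5 genes did so in Olfr1507 over Olfr73, and Car12 fell in Olfr73 over Olfr160 neurons. Their median log2 fold changes were -1.10, -1.03 and -1.45, against -0.14, -0.15 and -0.012 over all tested genes. Of all tested genes 27.7%, 19.9% and 10.5% were called lower in these comparisons, and 20.7%, 14.5% and 7.45% higher. Car5b and Car10 held 0 counts over the Olfr1507 libraries. They passed the low-count filter through other groups and could only fall in Olfr1507, so the counts that fell there do not test the family.

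Bicarbonate carriers, which act beside a carbonic anhydrase, differed widely in level. Slc4a10 was at 0 in all Olfr1507 libraries, and Slc26a4 held 1, 0 and 24 counts over the Olfr1507, Olfr73 and Olfr160 libraries. Slc4a8 averaged 97.3 ± 4.34 TPM in Olfr1507, 82.5 ± 23.9 TPM in Olfr73 and 66.4 ± 5.28 TPM in Olfr160 libraries and Slc4a4 86.4 ± 13.4, 26.8 ± 3.00 and 47.4 ± 17.1 TPM in the same order. Slc4a8 rose in Olfr1507 over Olfr160 (log2 fold change 1.19, edgeR adjusted p = 0.000458) and in Olfr73 over Olfr160 neurons (0.80, adjusted p = 0.0122). Slc4a4 rose in Olfr1507 over Olfr160 (1.05, adjusted p = 0.00369) and over Olfr73 (1.66, adjusted p = 0.000688). With the transduction genes as the scale, Slc4a8 was at -0.33 (adjusted p = 0.0508) and Slc4a4 fell by 0.44 (adjusted p = 0.0184) in Olfr1507 over Olfr160 neurons, and Slc4a8 was at 0.17 in Olfr73 over Olfr160 neurons. Relative to the median of all tested genes both kept their place in Olfr1507 over Olfr160 neurons, at 1.27 for Slc4a4 and 1.38 for Slc4a8 on that scale, against 1.19 and 1.33 with TMM. Slc4a7 fell in all 3 comparisons (-2.87, -1.59 and -1.28 for Olfr1507 over Olfr160, Olfr1507 over Olfr73 and Olfr73 over Olfr160; adjusted p = 0.000383, 0.0108 and 0.0387). Of the 8 genes of this list that were tested, 2 rose and 5 fell in Olfr1507 over Olfr160 neurons. In Olfr1507 over Olfr73 1 rose and 3 fell, and in Olfr73 over Olfr160 neurons 1 rose and 2 fell. Of all tested genes 20.7%, 14.5% and 7.45% were called higher in these comparisons, and 27.7%, 19.9% and 10.5% lower. Scaling to the transduction genes called 14000, 9563 and 5079 of all 16399 tested genes, with 118, 357 and 99 of them higher. For this list the counts that rose and fell were then 0 and 7, 1 and 5, and 0 and 4. Among those that fell in both comparisons of Olfr1507 was Slc4a1, the anion exchanger of red blood cells, named after its values were seen. Its edgeR adjusted p was 0.00565 over Olfr160 and 0.0424 over Olfr73. Slc4a1 held 1, 54 and 387 counts over the Olfr1507, Olfr73 and Olfr160 libraries. It passed the low-count filter through other groups and could only fall in Olfr1507, as could Slc4a10 where tested. The counts of genes that fell in Olfr1507 therefore do not test the list.

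Cnga3, the cyclic GMP-gated channel subunit of necklace neurons, was barely detected. It lies at chr1:37214434-37263384 on the plus strand. The libraries held 4, 0 and 7 counts in Olfr1507, 0, 4 and 0 counts in Olfr73, and 12, 31 and 3 counts in Olfr160. It was at 0 in 3 of the 9 libraries, and the groups overlapped. When the filter on low counts was left out, no comparison passed (edgeR adjusted p = 0.426 in Olfr1507 over Olfr160, 0.54 in Olfr1507 over Olfr73, 0.24 in Olfr73 over Olfr160). Of the 46 counts over the Olfr160 libraries, 31 came from library 2. Cnga3 made up 0.00153 ± 0.00147% of the TPM of the 4 Cnga genes in Olfr1507, 0.000703 ± 0.00122% in Olfr73 and 0.0140 ± 0.0123% in Olfr160 libraries (SD, n = 3 each; two-sided exact permutation p = 0.2 in Olfr1507 over Olfr160, 0.7 in Olfr1507 over Olfr73, 0.1 in Olfr73 over Olfr160, or 0.6, 0.84 and 0.6 after adjustment over the 6 share comparisons).

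The subunits of the canonical channel were abundant. Cnga2, the main subunit of the cyclic AMP-gated channel, averaged 5957 ± 253 TPM in Olfr1507, 2864 ± 56.8 TPM in Olfr73 and 1966 ± 511 TPM in Olfr160 libraries, and rose in Olfr1507 over Olfr160, in Olfr1507 over Olfr73 and in Olfr73 over Olfr160 neurons (log2 fold change 1.80, 1.22 and 0.58; edgeR adjusted p = 7.49e-05, 0.00107 and 0.0481). Its partners Cnga4 and Cngb1 averaged 2917 ± 206 and 676 ± 147 TPM in Olfr1507, 1812 ± 98.6 and 336 ± 56.5 TPM in Olfr73, and 1094 ± 300 and 234 ± 105 TPM in Olfr160 libraries. All 3 of these subunits rose in Olfr1507 over Olfr160 and over Olfr73, and 2 of them, Cnga2 and Cnga4, in Olfr73 over Olfr160 neurons. Of all tested genes 20.7%, 14.5% and 7.45% were called higher in these comparisons. Libraries were also scaled to the counts of transduction genes, a list that holds these subunits. Then 1 of the 3 passed in Olfr1507 over Olfr160, 1 in Olfr1507 over Olfr73 and 0 in Olfr73 over Olfr160 neurons. On that scale 118, 357 and 99 of all 16399 tested genes were called higher in the same order. Cnga4 was then at -0.04 in Olfr1507 over Olfr73 and Cnga2 at -0.05 in Olfr73 over Olfr160 neurons.

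Trpc2 cannot be measured well from these counts, because its gene model shares its exons with neighbours on the same strand. The single transcript annotated as Trpc2 in GENCODE spans chr7:102083116-102096396 on the plus strand. Of its 2874 exonic bases, 2803 (97.5%) lie in exons of Xntrpc, a model that reads through from the upstream gene Xndc1, and the other 71, its first exon, lie in an exon of Xndc1. No exonic base belongs to Trpc2 alone, and the splice from its first to its second exon separates its RNA from that of its neighbours. The first 60 coding bases around that splice, from the GENCODE transcript on GRCm38, are shown because reads across it carry the identity of the gene. The capitals mark the 15 coding bases of the first exon (chr7:102083172-102083186), and the lower-case letters are the start of the second exon (chr7:102083861-102083905).
Trpc2: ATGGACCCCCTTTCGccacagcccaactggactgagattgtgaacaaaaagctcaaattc

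The expected counts assigned to Trpc2 were 0, 2.10 and 10.88 in the Olfr1507 libraries, 0, 1.96 and 0 in those of Olfr73, and 0, 9.81 and 0 in those of Olfr160. It was at 0 in 5 of the 9 libraries, and no group stood apart from another. Xntrpc held more counts than Trpc2 in every library, with 26.25, 43.6 and 16.98 in Olfr1507, 31.75, 38.62 and 15.96 in Olfr73, and 23.95, 25.13 and 21.09 in Olfr160. Xntrpc passed in no comparison (edgeR adjusted p = 0.68 in Olfr1507 over Olfr160, 0.941 in Olfr1507 over Olfr73, 0.682 in Olfr73 over Olfr160). Summing both rows, an alternative chosen after the values were seen, gave mean counts of 33.3 in Olfr1507, 29.4 in Olfr73 and 26.7 in Olfr160 libraries. Without the low-count filter Trpc2 itself passed in no comparison (edgeR adjusted p = 0.816 in Olfr1507 over Olfr160, 0.409 in Olfr1507 over Olfr73, 0.528 in Olfr73 over Olfr160).

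**Figure D4:**
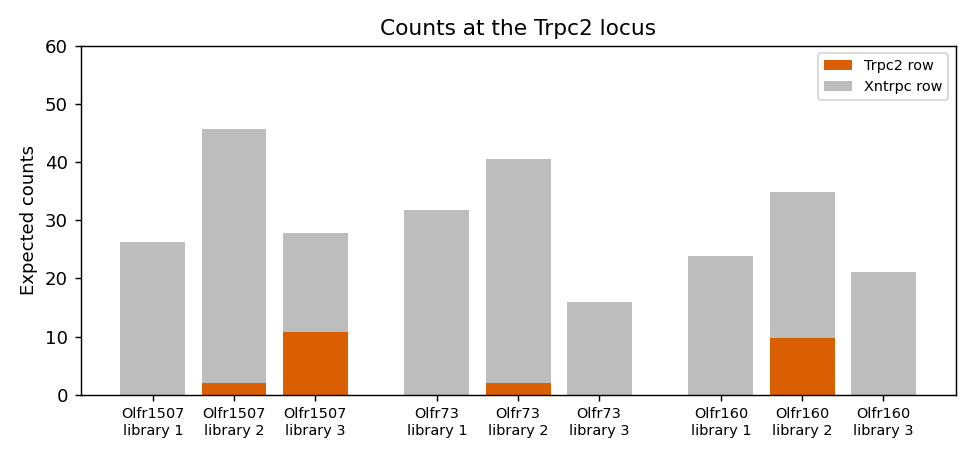
Expected counts of the Trpc2 row (orange) and the Xntrpc row (grey), stacked for each of the 9 libraries, Olfr1507 to Olfr160 from left to right. Trpc2 has counts in 4 of the 9 libraries, 2 of Olfr1507 and 1 each of Olfr73 and Olfr160, whereas Xntrpc has counts in all of them.

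Relatives of Trpc2 were better measured. Trpc4 averaged 4.15 ± 1.04 TPM in Olfr1507, 16.7 ± 5.46 TPM in Olfr73 and 10.8 ± 3.04 TPM in Olfr160 libraries, and fell in Olfr1507 over Olfr160 (log2 fold change -1.15, edgeR adjusted p = 0.0169) and over Olfr73 (-1.83, adjusted p = 0.00321). Trpc1 averaged 7.61 ± 1.44, 8.59 ± 1.19 and 6.31 ± 1.28 TPM in the same order and passed in no comparison. Trpc6 was not tested and was at 0 in all 9 libraries. Of 21 genes of vomeronasal signalling, 6 were tested. In Olfr1507 over Olfr160 neurons Gnao1, a G protein subunit common in neurons, rose and 4 fell. In Olfr1507 over Olfr73 neurons 4 fell, and in Olfr73 over Olfr160 neurons Meis2, a transcription factor, fell. Of all tested genes 27.7%, 19.9% and 10.5% were called lower in these comparisons. The median log2 fold changes were -3.87, -2.43 and -1.64, against -0.14, -0.15 and -0.012 over all tested genes. Gnai2 held 2 counts over the Olfr1507 and 181 over the Olfr160 libraries, so it passed the low-count filter through other groups and could only fall in Olfr1507. The rise of Gnao1 (0.61, edgeR adjusted p = 0.00657) did not pass with library size alone (0.19, adjusted p = 0.271), where 5 fell. It turned to -0.94 (adjusted p = 0.00111) with the transduction genes as the scale. That scale called 14000 of all 16399 tested genes, 118 of them higher, and all 6 vomeronasal genes tested fell. Those that fell included Gnai2, a G protein subunit of vomeronasal and many other cells (0.0233 ± 0.0208 TPM in Olfr1507, 1.29 ± 0.597 TPM in Olfr73 and 3.19 ± 1.81 TPM in Olfr160 libraries), and Ano1, a chloride channel (0.397 ± 0.379, 4.37 ± 2.01 and 16.8 ± 4.21 TPM). Both are also made in gland, supporting or immune cells, whose markers had the same order of groups, and the part of those cells was not tested.

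Other genes known from necklace neurons were mostly at or near 0. The list held 25 genes, including 18 of the MS4A family, which serve as receptors in necklace neurons. Of the 25, 19 were at 0 throughout in Olfr1507, 16 in Olfr73 and 7 in Olfr160 libraries. Guca2a and Guca2b, which encode the guanylin peptides, were at 0 in all 9 libraries. Emx1, a transcription factor of olfactory neurons, held 4, 9 and 32 counts over the Olfr1507, Olfr73 and Olfr160 libraries and was not tested. Of the 7 genes tested, 5 fell and none rose in Olfr1507 over Olfr160 neurons, 1 rose in Olfr1507 over Olfr73 neurons, and 3 fell in Olfr73 over Olfr160 neurons. Those 3 were Ms4a6c, Ms4a6d and Tshz1. Over all tested genes 27.7% were called lower in the first comparison, 14.5% higher in the second and 10.5% lower in the third. The median log2 fold changes of the list were -5.16, with genes at 0 set to their bounds, -2.70 and -1.47. Ms4a6b, Ms4a6c and Ms4a6d held 0 counts over the Olfr1507 libraries and Ms4a7 held 2. They passed the low-count filter through other groups and could only fall in Olfr1507 over Olfr160 neurons, so this count and median do not test the list.

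The MS4A genes that fell were Ms4a1, Ms4a6b, Ms4a6c, Ms4a6d and Ms4a7 in Olfr1507 over Olfr160 neurons. Ms4a7 averaged 0.0900 ± 0.108 TPM in Olfr1507, 0.987 ± 1.35 TPM in Olfr73 and 8.76 ± 6.35 TPM in Olfr160 libraries (edgeR adjusted p = 0.00596 for Olfr1507 over Olfr160). Ms4a6d was at 0 in all Olfr1507 libraries and averaged 0.0267 ± 0.0462 TPM in Olfr73 and 3.60 ± 0.650 TPM in Olfr160 libraries, at least 35.7-fold lower in Olfr1507 than in Olfr160 (floor of 3 counts over the group; edgeR adjusted p = 0.00397). Ms4a6c was likewise at 0 in Olfr1507, at least 32.1-fold lower than in Olfr160 libraries (adjusted p = 0.00617). Ms4a1 marks B cells and Ms4a6c, Ms4a6d and Ms4a7 are also made by macrophages. The 11 immune markers tested all fell in the same comparison, where 27.7% of all tested genes were called lower. Their median log2 fold change was -6.50 (genes at 0 set to their bounds). Some, such as Csf1r at 0 in the Olfr1507 libraries, passed the low-count filter through other groups and could only fall. The part of immune cells in the MS4A values was not tested. Tshz1, a transcription factor, had another order: it averaged 19.2 ± 1.24 TPM in Olfr1507, 6.72 ± 3.07 TPM in Olfr73 and 16.8 ± 3.28 TPM in Olfr160 libraries, rose in Olfr1507 over Olfr73 neurons (log2 fold change 1.68, adjusted p = 0.00385) and fell in Olfr73 over Olfr160 neurons (-1.30, adjusted p = 0.0228). Scaled to the transduction genes, the log2 fold change over Olfr73 was 0.79 and did not pass (adjusted p = 0.084). On that scale all 7 tested genes of the list fell in Olfr1507 over Olfr160 neurons. In Olfr1507 over Olfr73 0 rose and 4 fell, and in Olfr73 over Olfr160 neurons 4 fell. This scaling moved most genes the same way: 14000, 9563 and 5079 of all 16399 tested were called, 118, 357 and 99 of them higher.

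Genes that act before or after cyclic GMP were at low levels. Nos1, a nitric oxide synthase whose product activates soluble guanylyl cyclases, averaged 0.0533 ± 0.0306 TPM in Olfr1507, 0.440 ± 0.176 TPM in Olfr73 and 1.02 ± 0.312 TPM in Olfr160 libraries. It fell in Olfr1507 over Olfr160 (log2 fold change -4.25, edgeR adjusted p = 0.000303) and over Olfr73 neurons (-2.88, adjusted p = 0.00337). Prkg1, a kinase that cyclic GMP activates, averaged 0.723 ± 0.493, 0.283 ± 0.382 and 1.03 ± 0.360 TPM and passed in no comparison, nor did Nos3, another nitric oxide synthase.

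The 4 necklace genes did not keep a fixed proportion from library to library. Per TPM of Gucy2d there were 3.79 and 0.584 TPM of Pde2a in Olfr1507 libraries 2 and 3, 0.407, 2.35 and 1.53 TPM in those of Olfr73, and 2.07, 0.834 and 2.67 TPM in the Olfr160 libraries, while library 1 of Olfr1507 had no Gucy2d. Olfr73 library 1, the highest of its group for Gucy2d and Car2, held 0 counts of Cnga3 and less Pde2a than library 2. Car2 per TPM of Gucy2d was 145 and 104 in Olfr1507 libraries 2 and 3, 18.4, 46.7 and 72.4 in those of Olfr73, and 30.0, 28.4 and 37.1 in the Olfr160 libraries. Library 2 of Olfr160 was the highest of all 9 for 5 of the 6 genes, the exception being Trpc2, whose highest value was in Olfr1507 library 3.

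**Figure D5:**
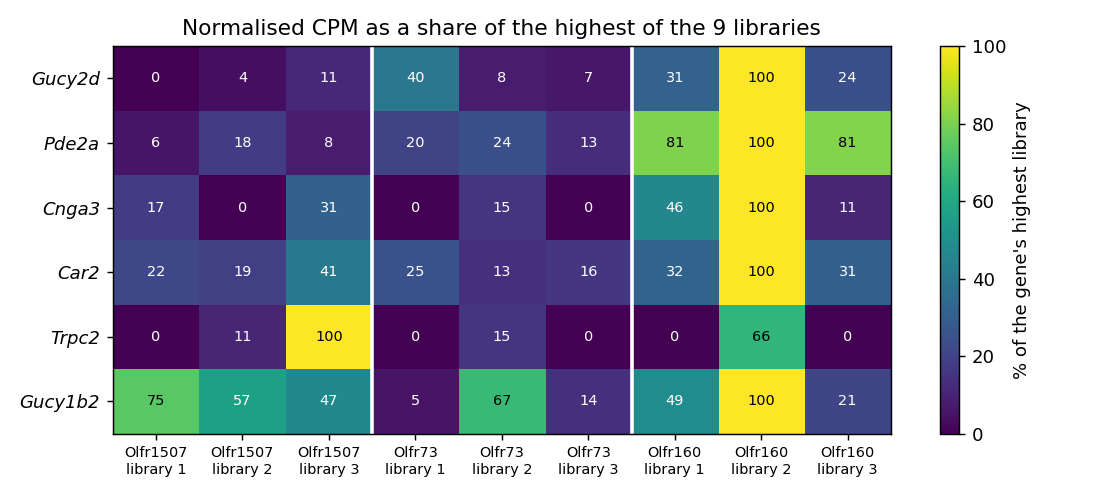
Normalised CPM of each gene in each library as a percentage of that gene's highest library, with Olfr1507, Olfr73 and Olfr160 libraries from left to right. Library 2 of Olfr160 is at 100 for 5 genes, and for Pde2a the other Olfr160 libraries follow closely while no other library is above 25.

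The genes whose levels were most like each member's were found among 13385 tested genes. Olfr genes and gene models (Gm plus a number, or Rik) were left out of that search. The measure was the root mean square difference of centred log2(normalised CPM + 1) over the 9 libraries. For Pde2a these were Itgav (0.27), Cd44 (0.28) and Ascl3 (0.28), against a root mean square of 1.19 of Pde2a about its own mean. Itgav encodes an integrin, Cd44 a surface receptor of many non-neuronal cells, and Ascl3 a transcription factor of microvillar and gland progenitor cells. For Gucy2d they were Osmr (0.51), Flna (0.55) and Prag1 (0.58), against 1.36 about its mean. For Car2 they were Gpr22 (0.32), Cnn1 (0.38) and Taok3 (0.39), against 0.81, and for Gucy1b2 Ptprd (0.47), Vhl (0.55) and Hmgcll1 (0.58), against 1.09. Cnga3 and Trpc2 vary too little on this scale (0.36 and 0.24 about their means) for their nearest genes to be informative.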

How the data were processed

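Per the submitters' processing notes, the tools were STAR 2.6.1, RSEM 1.3.1 and DESeq2 with build mm10; their roles and settings, the annotation release and the strand setting are not given in the sources used here. Libraries came from a low-input polyA kit per the labels. The authors deposited RSEM expected counts (estimated counts, not scaled for depth) and TPM, per gene and library; columns carry older receptor names, matched to the labels through gene synonyms.

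The 6 genes and all gene lists were chosen with earlier results of these data known. Expected counts were rounded and fitted with edgeR 4.0.16 in R 4.3.3 (filterByExpr by group, TMM, robust quasi-likelihood, all 9 libraries, no covariates), with adjustment over the 16399 genes tested. Positive log2 fold changes mean higher in the group named first. Genes at 0 were bounded with 3 counts over the group. Intervals are 95% and cover counting error only, since no molecular identifiers are stated. TPM levels were compared between genes and CPM within one. Family shares were compared by exact permutation (scipy 1.17.1). On simulated data for Olfr1507 over Olfr160 (15814 genes, 200 of them changed), 21% of 2-fold and 49% of 4-fold changes were called, with 4 false calls. In the data 7939 genes were called there, so these shares do not measure the power reached in the data. Beside the members, up to 4 genes per list with the lowest adjusted p were named, with the main family relatives and the 3 most alike genes. Alternatives covered scaling, filter, rounding, tool (DESeq2 1.42.0, limma 3.58.1), block, libraries and threshold. Replicate numbers were checked for pairing, a weak check with 3 libraries a group, and no pairing was used in the main fit. Annotation was GENCODE on GRCm38.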

Additional observations from a re-analysis of the deposited data

How the results depend on the processing

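Of 252 alternative values for the log2 fold changes of the 4 tested members, 221 kept their direction and their side of the threshold, 15 newly passed, 7 no longer passed and 9 reversed; in those that changed, the cause was not tested. In Olfr1507 over Olfr160 neurons 1 member was called in place of 2 without the low-count filter, with limma-voom and at an adjusted p of 0.01, and that member was Pde2a; 3 were called, with Car2 added, with library size alone, scaling to the transduction genes and DESeq2. Leaving out 1 library at a time gave 1 to 2 members there. Gucy1b2, at 0.069 in that comparison, reversed to -0.040 with RLE size factors, -0.35 with library size alone, -1.55 with scaling to the transduction genes, -0.077 with at least 5 CPM in 3 libraries and -0.039 with DESeq2, and ran between -0.32 and 0.77 with single libraries left out. In Olfr1507 over Olfr73 neurons, where 0 members were called, scaling to the transduction genes gave 1 (Pde2a, adjusted p = 0.0101) and reversed Car2 to -0.32 (relative to the median of all genes, at -1.04 on that scale, Car2 was at 0.72 with either scaling), and single libraries left out gave 0 to 1. In Olfr73 over Olfr160 neurons 2 members in place of 1 were called, Car2 beside Pde2a, with library size alone, scaling to the transduction genes, at least 5 CPM in 3 libraries, DESeq2, limma-voom and limma-trend with either pseudocount; single libraries left out gave 1 to 2, and an adjusted p of 0.01 left 0 (Pde2a was at 0.0101).

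Over all genes, scaling to the transduction genes called 14000, 9563 and 5079 genes in Olfr1507 over Olfr160, Olfr1507 over Olfr73 and Olfr73 over Olfr160 neurons, in place of 7939, 5640 and 2936, and an adjusted p of 0.01 called 4969, 2837 and 769; limma-voom called 4453 in the last comparison. Single libraries left out gave 3657 to 5546 genes in Olfr1507 over Olfr73 and 976 to 3062 in Olfr73 over Olfr160 neurons, with the lowest counts without Olfr1507 library 1 and without Olfr160 library 2 (1408 without Olfr160 library 1, 1878 without Olfr73 library 3). The share of calls that were higher, 42.8% in Olfr1507 over Olfr160, 42.2% in Olfr1507 over Olfr73 and 41.6% in Olfr73 over Olfr160 neurons, became 17.7%, 18.2% and 30.6% with library size alone and 0.843%, 3.73% and 1.95% with scaling to the transduction genes. Those scalings moved the median of all genes in Olfr1507 over Olfr160 neurons to -0.56 and -1.71, against -0.14; relative to that median Pde2a was at -2.89, -2.90 and -2.89 and Gucy2d at -3.21, -3.22 and -3.23 with library size, transduction genes and TMM.

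The same replicate numbers stand in all 3 groups. Deviations of same-numbered libraries correlated between -0.193 and 0.13, and those of differently numbered libraries between -0.114 and 0.108. Not every library correlated best with its own number. Deviations from means of 3 libraries are a weak check, so whether same-numbered libraries share an origin was not settled. With a replicate block, 1 member (Pde2a) in place of 2 was called in Olfr1507 over Olfr160 neurons, with Gucy2d at an adjusted p of 0.101, and 7398, 4804 and 2485 genes were called in the 3 comparisons. Shares of Car2 and Cnga3 within their families moved by less than 1 SD with counts in place of TPM or with a library left out. By counts, however, Olfr160 went from the highest group to the lowest for Car2. Cnga3 and Trpc2 had 31 counts or fewer in any library; whether depth set their missing calls was not tested.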

Other observations

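Another set of atypical receptors, the trace amine-associated receptors, which replace odorant receptors in a dorsal set of olfactory neurons and respond to amines, differed widely between the groups. Of 15 genes, 11 were at 0 in all Olfr1507 libraries, 7 in all Olfr73 libraries and 1, Taar1, in all Olfr160 libraries. Their summed level was 0.0558 to 0.297 CPM in Olfr1507, 5.46 to 19.1 CPM in Olfr73 and 18.2 to 25.8 CPM in Olfr160 libraries. Of the 6 tested, 5 fell in Olfr1507 over Olfr160 and 3 in Olfr1507 over Olfr73 neurons. Over all tested genes 27.7% and 19.9% were called lower in these comparisons. The whole list was near 0 in Olfr1507, so its tested genes passed the low-count filter through other groups. Only a fall was open to them in these comparisons, so the counts of genes that fell do not test the list. By edgeR none passed in Olfr73 over Olfr160 neurons (1 had an unadjusted p under 0.05). Taar6 had 2 counts in all over the Olfr1507 libraries and averaged 18.1 ± 23.4 TPM in Olfr73 and 14.4 ± 11.9 TPM in Olfr160 libraries (SD, n = 3 each). Taar7a was at 0 in Olfr1507, at least 25.8-fold lower than in Olfr73 and 60.8-fold lower than in Olfr160 libraries (floor of 3 counts over the group). The Taar7 genes are close paralogs that share sequence, so the split of counts among them is uncertain. These genes were chosen for description after their values were seen.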
